A study of Mus musculus with 8 samples.

Results

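The 31 immediate early genes described here belong to a family whose transcription is known to rise within minutes of neuronal activity or another acute stimulus. They were taken by name from a table of 31417 genes, and all 31 were among the 16228 genes with enough counts to be tested. Poly(A) RNA had been sequenced from the hippocampus of 12-month-old mice, with 4 libraries labelled wild type (WT) and 4 labelled Dclk3 knockout (KO), each made from a single hippocampus and 1000 ng of total RNA. Dclk3 encodes doublecortin-like kinase 3, a brain serine/threonine kinase, and both groups share age and tissue. Strain, sex, which stretch of Dclk3 was removed, time of day and handling before dissection: none is given in the sources used here. Nothing in the labels ties the 4 libraries of a genotype to 4 different animals, so p-values measure the spread between these samples, which may be technical.

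Synaptic input and growth factors raise calcium and activate MAP kinase signalling, which phosphorylates transcription factors already bound at the promoters of these genes, such as CREB at cyclic AMP response elements (CRE) and serum response factor at CArG boxes. The first products are transcription factors of the bZIP (Fos, Jun), EGR, NR4A and Npas4 families, together with proteins that act at synapses (Arc, Homer1, Nptx2) and phosphatases that switch the signal off (Dusp1, Dusp5, Dusp6). Their messages are short-lived, so their level in a tissue reflects its recent activity. In the hippocampus they are used to mark cells that took part in learning or in a seizure.

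Promoter sequences were available for 25 of the 31 genes in RefSeq (build GRCm38.p6), from 250 bases before to 50 bases after a start site. The stretches shown lie before the start site and were chosen because they hold these elements and belong to Fos and genes with r above 0.7 with Fos (Egr2, Dusp5, Homer1), or to a pair with a high r of its own that did not pass after adjustment (Dusp1, Btg2). Dusp6, the gene nearest to Fos, has an entry with none of the motifs searched and is not shown. Capitals mark the CRE core (TGACG, or CGTCA on the other strand), the full CRE (TGACGTCA), a CArG box or, in Fos, the TATA box. The genomic positions are chr12:85473751-85473872 (plus strand) for Fos, chr10:67537748-67537828 (plus) for Egr2, chr19:53529053-53529104 (plus) for Dusp5, chr13:93303691-93303756 (plus) for Homer1, chr17:26508598-26508673 (minus) for Dusp1 and chr1:134079304-134079331 (minus) for Btg2. None overlaps an exon of its own gene in GENCODE M21, that of Dusp5 overlaps an exon of the noncoding gene AC137853.2, and the stretches of Homer1, Egr2 and Dusp1 lie inside the annotated span of their genes.
Fos: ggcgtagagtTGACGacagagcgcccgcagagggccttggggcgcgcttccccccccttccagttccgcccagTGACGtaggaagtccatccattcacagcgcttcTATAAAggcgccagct
Egr2: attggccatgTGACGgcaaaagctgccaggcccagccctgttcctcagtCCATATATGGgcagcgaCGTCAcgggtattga
Dusp5: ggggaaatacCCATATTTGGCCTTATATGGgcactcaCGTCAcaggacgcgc
Homer1: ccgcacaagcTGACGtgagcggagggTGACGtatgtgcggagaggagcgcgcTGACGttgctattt
Dusp1: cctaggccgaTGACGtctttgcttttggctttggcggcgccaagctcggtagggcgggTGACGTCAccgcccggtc
Btg2: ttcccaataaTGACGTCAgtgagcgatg

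The CRE core occurred on either strand in 18 of the 25 immediate early gene promoters (72.0%), against 23.0% of 27025 genes with a promoter of the same length. The full CRE, which contains the core, occurred in 3 of 25 (12.0%, in Btg2, Dusp1 and Maff) against 2.03% of all genes. A CArG box occurred in 2 of 25 (8.0%, in Egr2 and Dusp5) against 1.81%, and the Dusp5 stretch holds 2 such boxes side by side. The CRE core was found in 6 of 9 promoters of Fos and the genes with r above 0.7 with it (66.7%) and in 12 of 16 of the others (75.0%), and the full CRE in 0 of 9 and 3 of 16. The AP-1 site TGANTCA, bound by Fos and Jun dimers, was found in 0 of 25 of these windows, against 8.97% of all genes. These are matches of letters in a short window and a gene with several start sites was counted once if any window matched. Arc, Egr1, Egr3, Ier2, Nptx2 and Sik1 had no entry.

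Libraries held 29301974 to 36552757 counts, and 1 count stood for 0.0272 to 0.0346 CPM (counts scaled to the library's total in tested genes and its TMM factor). Dclk3 itself, the check of the labels, had 649 to 1261 counts in WT and 171 to 301 in KO, which edgeR fitted as -1.79 on the log2 scale (SE 0.22, adjusted p = 0.234). DESeq2 called Dclk3 (adjusted p = 9.79e-14), limma-voom gave an adjusted p of 0.0722, and edgeR gave 0.0121 without WT replicate 2 and 0.123 to 0.997 without any other library. Markers of excitatory neurons were all tested (7 of 7, 8508 to 10160 CPM in sum). So were those of dentate granule cells (14 of 14) and CA1 pyramidal cells (11 of 11), none of them at 0. The same held for choroid plexus (12 of 12) and meningeal fibroblast markers (10 of 10), so it does not check the tissue label. Choroid plexus markers, from a tissue next to the hippocampus, ranged from 252.4 CPM in sum in WT replicate 4 to 3584 in WT replicate 2, and from 432.4 in KO replicate 1 to 4847 in KO replicate 2. In bulk tissue, fewer cells of a type and less RNA per cell cannot be told apart.

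The 31 genes spanned a wide range of levels. Per kilobase of annotated exon, the mean over the 8 libraries was highest for Arc at 47.8 CPM per kb, followed by Jun (34.8), Egr1 (24.2), Nr4a3 (19.97), Dusp6 (18.1), Nr4a1 (15.98) and Junb (15.2). Egr2 (0.846), Atf3 (0.424) and Maff (0.416) were the least abundant on this scale. Counts per gene pool all transcripts, so the short activity-induced form of Homer1 cannot be separated from its long forms. Junb, Jun, Dusp1, Dusp5 and Tiparp share exonic bases with a gene on the opposite strand, and because the strand setting of the counting is not given their levels are uncertain.

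The main feature of these genes was a wide spread between libraries that did not follow genotype. Fos, which encodes the bZIP partner of Jun, lay between 5.96 CPM in KO replicate 1 and 22.8 CPM in KO replicate 3, so that its highest and lowest values came from the same genotype. In all, 16 of 31 genes differed at least 2-fold between their highest and lowest library, against 19.5% of all tested genes. The median SD of log2 CPM over the 8 libraries was 0.31 for the immediate early genes and 0.155 for all tested genes. For 30 of 31 the SD exceeded the median SD of genes within 0.5 log2 units of the same level, the exception being Jun. These are descriptions, since the genes were chosen as a family known to respond quickly.

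**Figure D1:**
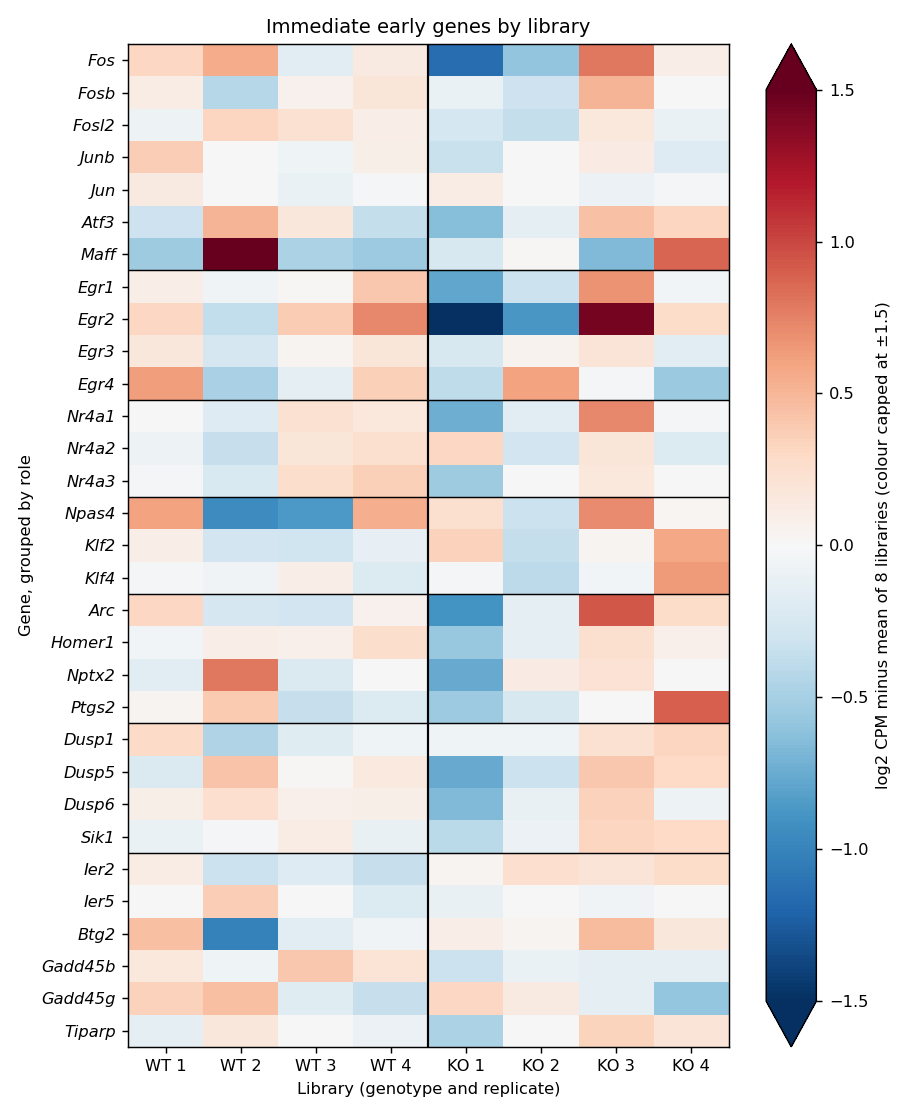
Level of each of the 31 immediate early genes (rows, grouped by role as in the text) in each of the 8 libraries (columns), as log2 CPM minus the mean of the 8 libraries. KO replicate 1 is blue for most genes (lowest of the 8 libraries in 16 of 31) and KO replicate 3 red for many (highest in 12 of 31), while the WT columns are mixed.

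KO replicate 1 had the lowest value of the 8 libraries for 16 of the 31 genes, against 22.3% of all tested genes, and KO replicate 3 had the highest for 12 of 31, against 8.3% of all tested genes. The median of the 31 centred log2 values was -0.33 in KO replicate 1 and 0.22 in KO replicate 3. It was -0.11 in KO replicate 2, 0.03 in KO replicate 4, and between -0.05 and 0.10 in the 4 WT libraries. Summed over the 31 genes, KO libraries held 871.2 CPM (replicate 1), 1054 (replicate 2), 1485 (replicate 3) and 1205 (replicate 4), and WT libraries 1152 to 1269 CPM. KO libraries therefore lay on both sides of the WT range.

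Levels of other markers in those same libraries are given here as measured, whether or not they differed. Mean centred log2 levels of CA1 markers were -0.245 in KO replicate 1 and 0.15 in KO replicate 3, and those of excitatory neuron markers -0.23 and 0.01. Dentate granule cell markers stood at 0.08 and 0.15, GABA neuron markers at 0.00 and -0.04, and choroid plexus markers at -1.18 and 0.86 in the same order. Summed CA1 markers were 1186 to 1567 CPM in KO and 1434 to 1648 CPM in WT. Red cell markers, from residual blood, were 0.685 and 0.58. Meningeal fibroblast markers stood at 0.37 and -0.52, mural markers at 0.13 and -0.18, endothelial markers at 0.11 and -0.05, and microglia markers at 0.036 and 0.004. The part of these markers in the spread of the immediate early genes was not tested.

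Among the transcription factors, Fos had 16.3, 19.5, 11.8 and 14.5 CPM in WT replicates 1 to 4 and 5.96, 8.70, 22.8 and 14.1 CPM in KO replicates 1 to 4. The WT values fell inside the KO range. Egr2, a zinc finger factor, was the most variable member (SD of log2 CPM 1.02, above that of 99.5% of tested genes), with 2.95, 1.81, 3.08 and 3.92 CPM across WT libraries and 0.599, 1.26, 6.50 and 2.88 CPM across KO libraries. These rest on 22 counts in KO replicate 1 and 188 counts in KO replicate 3, and the CPM differed 10.9-fold between them. Egr1, the most abundant EGR factor and a regulator of synaptic plasticity, measured 112, 101, 105 and 138 CPM across WT and 60.8, 83.2, 166 and 101 CPM across KO. The same 2 KO libraries bounded the values of both EGR genes.

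Nr4a1, an orphan nuclear receptor, followed the same order in KO, with 32.5, 48.5, 89.2 and 53.0 CPM, while WT libraries lay between 47.4 and 63.4 CPM. Nr4a3 was also lowest in KO replicate 1 but highest in WT replicate 4, and Nr4a2 did not share that order. Nr4a3 gave 116, 100.4, 141 and 151 CPM for WT libraries and 81.4, 117.5, 131.6 and 117.3 CPM for KO libraries, and Nr4a2 stood at 49.9, 41.3, 59.8 and 62.0 CPM across WT libraries and at 65.1, 43.1, 59.8 and 45.8 CPM across KO libraries, highest in KO replicate 1. Npas4, an activity-specific bHLH-PAS factor, stood at 13.3, 4.49, 4.79 and 12.8 CPM across WT libraries and at 10.3, 6.94, 14.3 and 8.89 CPM across KO libraries. Its WT libraries split into replicates 1 and 4, at 13.3 and 12.8 CPM, and replicates 2 and 3, at 4.49 and 4.79 CPM, and the KO libraries lay between 6.94 and 14.3 CPM.

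Of the remaining transcription factors, Jun was nearly level (SD of log2 CPM 0.08), at 121.6, 110.1, 102.9 and 109.8 CPM across WT libraries and at 119.5, 110.0, 104.3 and 108.9 CPM across KO libraries. Fosb, a Fos paralogue, ranged from 6.76 to 12.97 CPM and was highest in KO replicate 3. Egr3 ranged from 32.6 to 44.1 CPM. Egr4 measured 11.8, 5.42, 6.97 and 9.79 CPM across WT and 5.85, 11.7, 7.58 and 5.18 CPM across KO, an order unlike that of Egr1 and Egr2. Maff, a small bZIP factor, gave 0.612, 2.81, 0.642 and 0.608 CPM for WT libraries and 0.762, 0.926, 0.554 and 1.73 CPM for KO libraries, from 16 to 90 counts, with WT replicate 2 apart from the rest. Atf3, a stress-induced bZIP factor, ranged from 0.544 to 1.28 CPM.

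**Figure D2:**
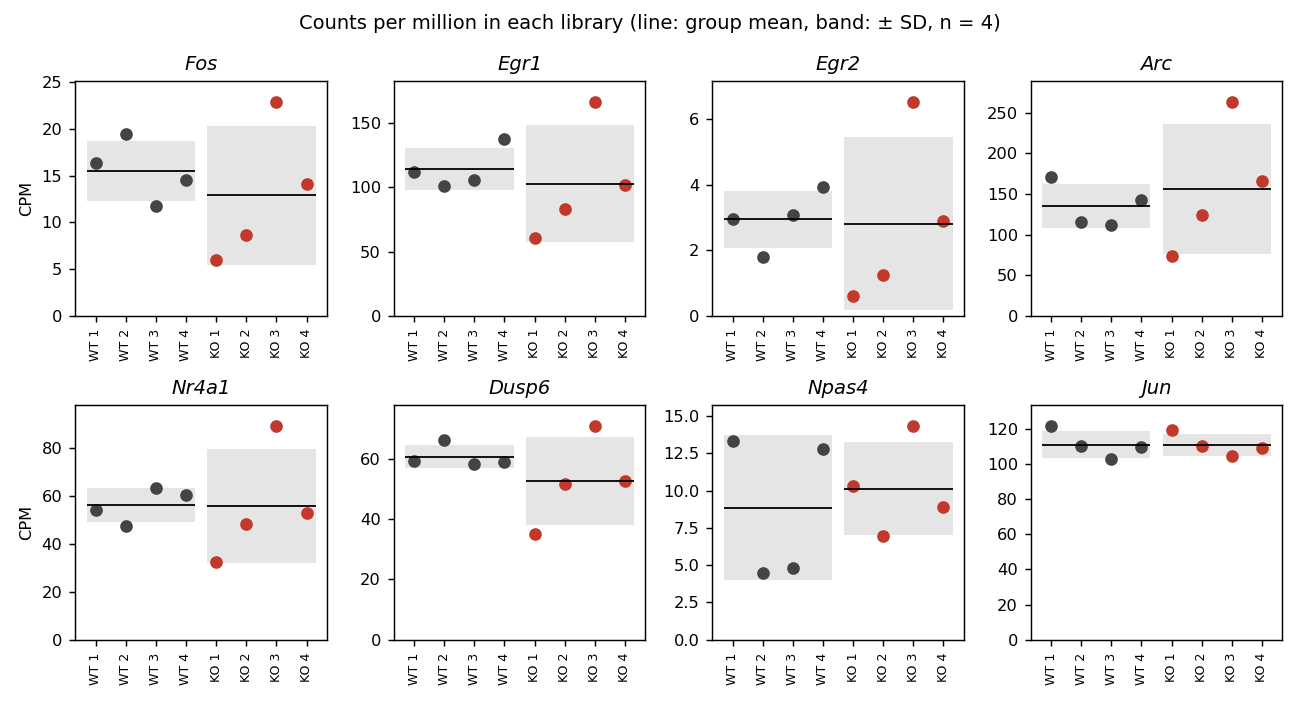
CPM (vertical axes, from 0) of 8 immediate early genes in each library, with grey points for WT, red points for KO, a line at the group mean and a band of ± SD (n = 4). Fos, Egr1, Egr2, Arc, Nr4a1 and Dusp6 were lowest in KO replicate 1 and highest in KO replicate 3, whereas Npas4 varied most among WT libraries and Jun hardly varied.

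Arc, which encodes a capsid-like protein that regulates AMPA receptor trafficking at synapses, stood at 171, 116, 112 and 143 CPM across WT libraries and at 73.8, 124, 263 and 166 CPM across KO libraries. Its ratio between KO replicates 3 and 1 was 3.56, close to the 3.83 of Fos. Homer1, a postsynaptic scaffold, measured 117, 129, 126 and 145 CPM across WT and 81.0, 109, 142 and 127 CPM across KO. KO replicate 1 lay below every other library for both genes. Nptx2, a secreted pentraxin that clusters AMPA receptors, was highest in WT replicate 2 (41.3 CPM) and lowest in KO replicate 1 (14.1 CPM), with the other 6 libraries between 20.5 and 27.8 CPM. Ptgs2, the inducible cyclooxygenase, was highest in KO replicate 4 (76.2 CPM), where the other 7 libraries had 28.0 to 53.7 CPM.

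The MAP kinase phosphatase Dusp6 gave 59.2, 66.4, 58.5 and 59.1 CPM for WT libraries and 35.2, 51.5, 70.9 and 52.7 CPM for KO libraries. Dusp5, a nuclear phosphatase of the same family, stood at 13.4, 21.1, 15.8 and 17.4 CPM across WT libraries and at 9.25, 12.5, 20.8 and 19.2 CPM across KO libraries. KO replicate 1 was lowest for both. Dusp1 behaved otherwise, with 15.2, 9.04, 11.0 and 11.8 CPM across WT libraries and 11.8, 11.8, 14.5 and 15.6 CPM across KO libraries. Sik1, a salt-inducible kinase that restrains CREB coactivators, ranged from 8.38 CPM in KO replicate 1 to 13.9 CPM in KO replicate 3. Klf2 and Klf4, zinc finger factors also known from endothelium, were both highest in KO replicate 4, at 7.49 and 6.88 CPM, where the other libraries had 3.87 to 6.31 and 3.34 to 4.72 CPM. In KO replicate 4 the 12 endothelial markers summed to 603.9 CPM, against 428.8 to 497.7 in WT and 432.7 to 517.5 CPM in the other KO libraries, none of them at 0, and their part in these values was not tested.

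**Figure D3:**
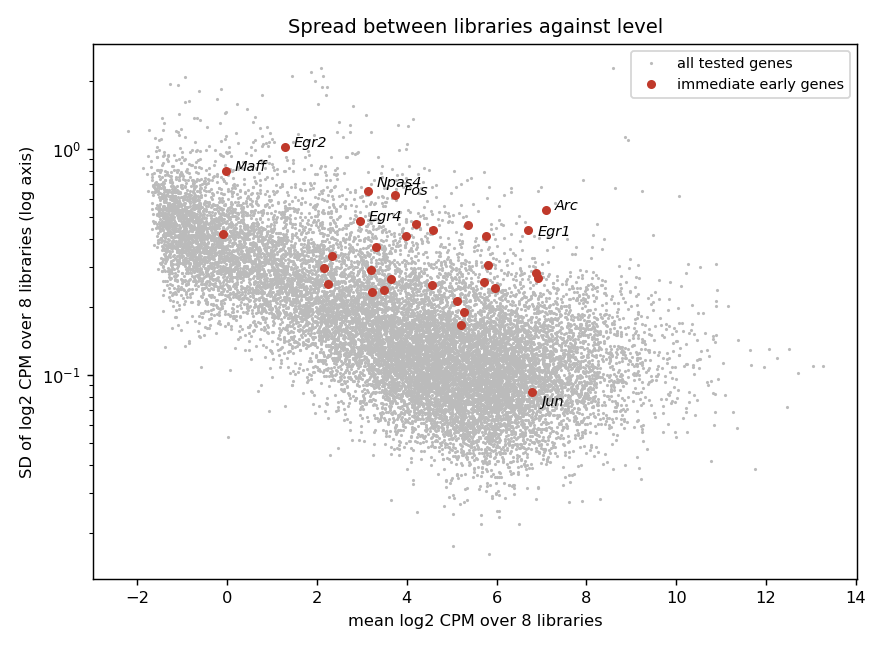
SD of log2 CPM over the 8 libraries (vertical, log axis) against mean log2 CPM (horizontal) for all tested genes in grey and the 31 immediate early genes in red. The red points lie in the upper part of the grey cloud at their level, with a median SD of 0.31 against 0.155 for all genes, and Jun alone lies below the median of its level.

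The spread of these genes within each genotype was compared next. The median SD of log2 CPM was 0.27 in WT and 0.39 in KO, and for all tested genes 0.13 and 0.15. The SD was larger in KO than in WT for 20 of 31 genes, against 55.6% of all tested genes. Without KO replicate 1 the KO median was 0.26, with 16 of 31 genes more variable in KO (48.3% of all tested genes), and without KO replicate 3 it was 0.35, with 19 of 31 (55.8% of all tested genes). The KO median exceeded the WT median only with KO replicate 1 included.

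Covariation was measured as the correlation of log2 CPM over the 8 libraries, with Fos as the reference. Of the other 30 genes, 11 had r above 0.7 with Fos (36.7%), against 10.9% of all tested genes. Among the CA1 markers it was 4 of 11, and their part in the relations was not tested. The median r with Fos was 0.44 over the 30 genes and 0.61 over the CA1 markers. It was 0.53 over late response genes, 0.74 over heat shock genes, 0.46 over excitatory neuron markers and -0.05 over dentate granule cell markers. The 11 immediate early genes above 0.7 were Dusp6 (r = 0.93), Dusp5 (0.89), Egr1 (0.87), Homer1 (0.85), Egr2 (0.84), Arc (0.80), Tiparp (0.80), Nr4a1 (0.76), Nptx2 (0.72), Fosl2 (0.72) and Atf3 (0.71). Of 30 relations tested, 11 had an exact two-sided permutation p under 0.05 and 1 passed after adjustment. That was Dusp6, with r = 0.933 (exact permutation p = 5.70e-04, adjusted p = 0.0171) and Spearman's rho = 0.976 (exact permutation p = 3.97e-04, adjusted p = 0.0119).

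These relations rested on a few KO libraries. KO replicates 1 and 2 lay farthest from the median of Fos, and without them r fell for each of the 11 genes. It was 0.83 for Dusp6 (exact permutation p = 0.0347, n = 6), 0.54 for Dusp5, 0.53 for Egr1, 0.30 for Homer1, 0.29 for Egr2, 0.62 for Arc and 0.35 for Nr4a1, and only that of Dusp6 stayed at an unadjusted p under 0.05. Leaving out KO replicate 1, KO replicate 2 or KO replicate 3 alone left 0 relations past the adjusted threshold, while leaving out WT replicate 1, WT replicate 2 or WT replicate 4 left 3, 4 and 3. With the genotype means removed, 4 relations passed. Removing the means ties the values within a genotype, so that permutation is too lenient and this count is not comparable with the main one. The KO libraries stood in the same order, replicate 1 lowest, then 2, 4 and 3, for Fos, Egr1, Egr2, Nr4a1, Arc, Homer1 and Dusp6. Of these genes, only Dusp6 shared the WT order of Fos, with replicate 2 highest, then 1, 4 and 3. Dusp6 lay between 58.5 and 59.2 CPM in WT replicates 1, 3 and 4. Egr1, Egr2 and Nr4a1 were lowest in WT replicate 2, and Nr4a1 was highest in WT replicate 3. With 4 libraries, no correlation within a genotype was tested. For Dusp5, Egr1, Homer1, Egr2 and Arc, Spearman's rho over the 8 libraries was 0.81, 0.71, 0.74, 0.64 and 0.69, with exact permutation p of 0.0218, 0.0576, 0.0458, 0.0962 and 0.0694 and adjusted p of 0.277 to 0.2885.

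**Figure D4:**
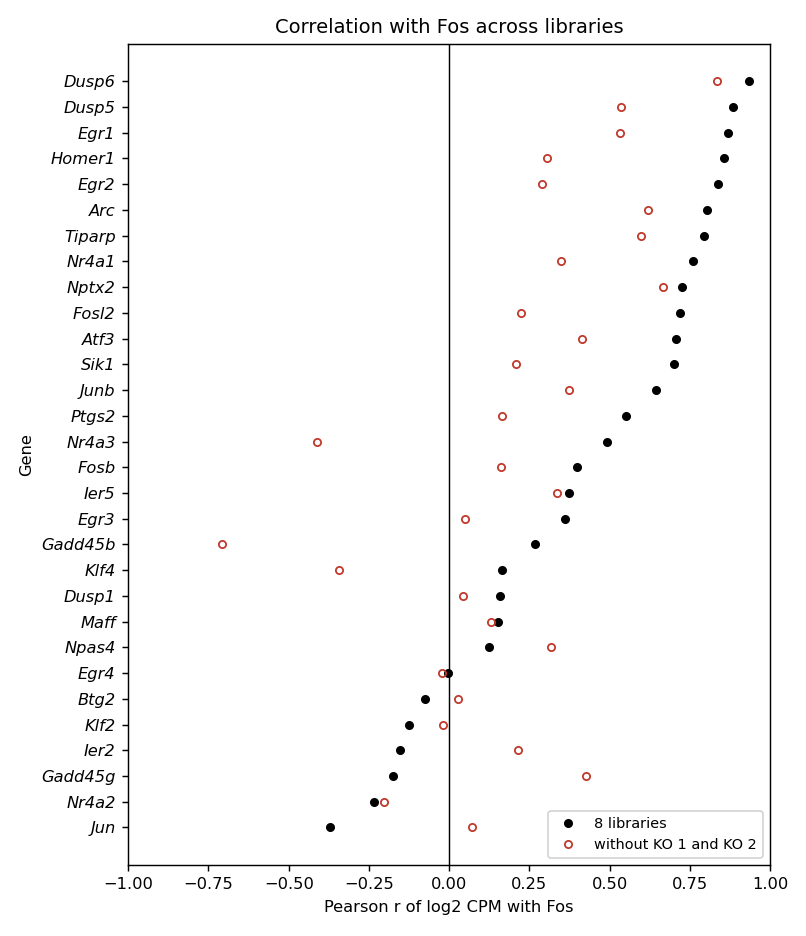
Pearson correlation of log2 CPM with Fos (horizontal) for the other 30 immediate early genes (vertical), over all 8 libraries (black) and without KO replicates 1 and 2 (open red). The black points run from 0.93 for Dusp6 to -0.37 for Jun, and most open points above the middle lie nearer 0.

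The genes least like Fos were Jun (r = -0.37, rho = -0.10), Nr4a2 (r = -0.235, rho = -0.21) and Gadd45g (r = -0.17, rho = 0.17), with exact permutation p of 0.367, 0.572 and 0.676 and adjusted p of 0.604, 0.8175 and 0.827. Without the 2 libraries farthest in Fos their r was 0.07, -0.20 and 0.43. Gadd45g, which encodes a stress sensor acting on MAP kinase signalling, stood at 12.5, 13.4, 8.67 and 7.70 CPM across WT libraries and at 12.2, 10.8, 8.82 and 6.56 CPM across KO libraries, so that replicates 1 and 2 of both genotypes were highest. Npas4, Egr4 and Btg2 also showed little relation to Fos, with r of 0.125, -0.003 and -0.08 and exact permutation p of 0.772, 0.995 and 0.851.

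Over all 465 pairs of the 31 genes, the median r was 0.20, against -0.002 over all pairs of tested genes. It was higher within several other lists, at 0.26 for late response genes, 0.29 for CA1 markers, 0.35 for corticosteroid-responsive genes, 0.41 for dentate granule cell markers, 0.48 for heat shock genes and 0.58 for endothelial markers. Pairs with r above 0.7 made up 16.3% of the 465, against 5.45% of all pairs of tested genes, and pairs with r below -0.7 made up 1.94% against 5.06%. An exact permutation p under 0.05 was found for 71 positive and 8 negative pairs, and 1 pair passed after adjustment over the 465. It was Egr1 with Egr2 (r = 0.972, exact permutation p = 7.44e-05, adjusted p = 0.0346, and rho = 0.976, adjusted p = 0.0923), with r = 0.88 without KO replicates 1 and 3, the libraries farthest from the median of Egr1. By role, the median r within a family was 0.68 for the EGR factors, 0.15 for the bZIP factors and 0.16 for the NR4A receptors. It was 0.53 for the kinase and phosphatase feedback genes and 0.51 for Npas4, Klf2 and Klf4. For the synaptic and secreted effectors it was 0.49, and for the other response genes -0.11.

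Outside the genes with r above 0.7 with Fos, Btg2, an antiproliferative immediate early gene, had a high r with Dusp1 and Npas4. Btg2 stood at 25.1, 9.07, 16.2 and 17.6 CPM across WT libraries and at 19.7, 18.9, 25.4 and 20.6 CPM across KO libraries, so that WT replicate 2 was lowest. WT replicate 2 was also lowest for Dusp1 and Npas4. The r of Btg2 with Dusp1 was 0.90 (rho = 0.81, exact permutation p = 0.00218 and 0.0218, adjusted p over 465 pairs = 0.1185 and 0.3895), and 0.97 without WT replicate 2 and KO replicate 4. The r of Npas4 with Btg2 was 0.80 (rho = 0.83, exact permutation p = 0.004365 and 0.0154, adjusted p = 0.145 and 0.3895), and 0.55 without WT replicates 2 and 3. Neither pair passed after adjustment. Other pairs had a lower p without passing, such as Atf3 with Tiparp (r = 0.92, exact permutation p = 4.22e-04, adjusted p = 0.0884). WT replicate 2 held 3584 CPM of choroid plexus markers, against 252.4 to 1489 in the other WT libraries. KO replicate 2 held 4847 CPM of them, with Btg2 at 18.9, Dusp1 at 11.8 and Npas4 at 6.94 CPM. The part of these markers was not tested.

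The comparison of KO with WT asked whether loss of Dclk3 changed the level of these genes. By edgeR's quasi-likelihood test, none of the 31 was called at an adjusted p under 0.05, where 0.0% of the 16228 tested genes were called, and the lowest adjusted p among the 31 was 0.796. Dclk3 itself was not called in that fit (log2 fold change -1.79, edgeR adjusted p = 0.234). The absence of calls therefore does not show that the 31 genes were unchanged. The count at an unadjusted p under 0.05 was 1000 over all tested genes. DESeq2 called 4 genes in all (0.0138%: Dclk3, Col6a4, Zcchc7 and Eml5) and limma-voom 0, and neither called an immediate early gene. At an unadjusted p under 0.05 there were 3 of 31, 1 higher and 2 lower in KO, against 3.96% of tested genes higher and 2.2% lower. That share, 9.68%, stands beside 6.16% of all tested genes. The median log2 fold change was -0.08, with 12 genes above and 19 below 0, against 0.0003 and 50.1% above 0 for all tested genes.

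The direction of that median depended on single libraries. Leaving out KO replicate 1 gave 0.039, and leaving out KO replicate 2 gave -0.001. The value was -0.01 with WT replicate 2 left out and -0.16 with KO replicate 3 left out. Without KO replicate 3, 6 genes (Gadd45b, Dusp6, Fos, Fosl2, Egr1 and Junb) lay lower in KO at an unadjusted p under 0.05, against 2.41% of genes tested in that fit, and 1 (Ier2) lay higher, against 3.23%, and none was called. When WT replicate 1 was left out, 3 (Btg2, Dusp1 and Ier2) lay higher, against 4.0% of genes, and Gadd45b and Fosl2 lower. Gadd45b alone remained when WT replicate 4 was left out. Only 12 of 31 genes kept the sign of their fold change in all 8 fits that left out a library.

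**Figure D5:**
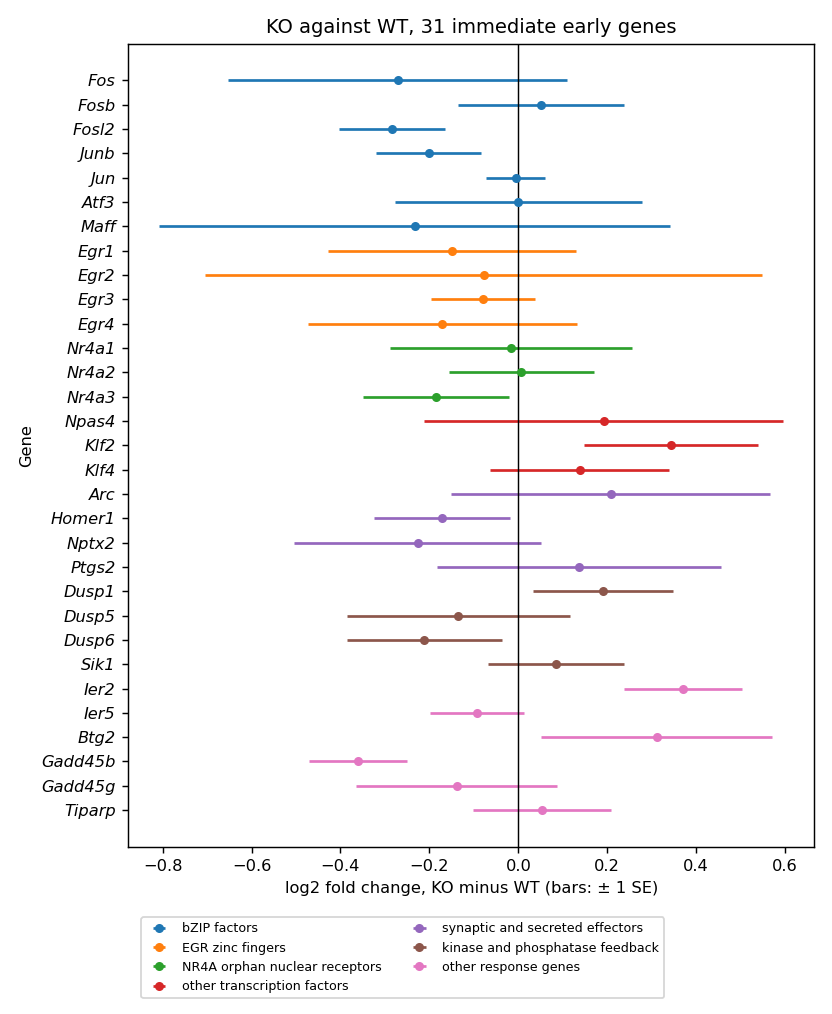
Log2 fold change of KO over WT from edgeR (horizontal, bars ± 1 SE, 4 libraries per group) for the 31 immediate early genes, coloured by role. The values lie between -0.36 (Gadd45b) and 0.37 (Ier2), and the bars of most genes cross 0.

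Gadd45b, a stress and activity-induced gene linked to DNA demethylation in hippocampal neurons, had the lowest p. It measured 10.5, 8.98, 12.4 and 10.8 CPM across WT and 7.48, 8.76, 8.48 and 8.45 CPM across KO. It was the only one of the 31 whose groups did not overlap, a separation shown by 3.8% of all tested genes, and the gap lay between 8.76 and 8.98 CPM. The means were 10.6 ± 1.39 and 8.29 ± 0.558 CPM (SD, n = 4 each), a log2 fold change of -0.36 (SE 0.11, unadjusted p = 0.00802 and adjusted p = 0.796 by edgeR). The sign held in all 8 fits that left out a library, from -0.43 to -0.275, with adjusted p of 0.350 to 0.997.

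Ier2, a nuclear early response protein gene, lay on the other side. It gave 5.07, 3.74, 4.11 and 3.68 CPM for WT libraries and 4.82, 5.59, 5.398 and 5.70 CPM for KO libraries, from 109 to 182 counts, and only WT replicate 1 overlapped the KO range. The fitted log2 difference was 0.37 (SE 0.13, adjusted p = 0.796 by edgeR, unadjusted p = 0.0182). Fosl2, a Fos-related bZIP factor, stood at 59.0, 78.1, 73.1 and 66.5 CPM across WT libraries and at 51.8, 48.4, 69.3 and 57.9 CPM across KO libraries, fitted by edgeR as -0.28 on the log2 scale (SE 0.12, unadjusted p = 0.0390, adjusted p = 0.796). KO replicate 3 was the KO library inside the WT range.

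The next genes by p were Klf2 (log2 fold change 0.34, SE 0.19), Junb (-0.20, SE 0.12) and Dusp1 (0.19, SE 0.16), with edgeR adjusted p of 0.7965, 0.7965 and 0.833. Klf2 measured 5.34, 4.05, 4.01 and 4.56 CPM across WT and 6.31, 3.87, 5.12 and 7.49 CPM across KO. Junb, a Jun family member, gave 44.8, 34.7, 33.1 and 36.9 CPM for WT libraries and 27.5, 34.6, 37.9 and 30.2 CPM for KO libraries. Both overlapped between genotypes. For Fos the means were 15.5 ± 3.215 and 12.9 ± 7.44 CPM, with a log2 fold change of -0.27 (SE 0.38), and for Arc 135.5 ± 27.3 and 156.6 ± 80.3 CPM (0.21, SE 0.36). Their standard errors were over 3 times the median SE of 0.105 over all tested genes, so changes of this size were not detectable for them. The median SE of the 31 genes was 0.195.

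By role, the bZIP factors had 6 of 7 log2 fold changes below 0 (median -0.20), the EGR factors 4 of 4 (-0.11), the NR4A receptors 2 of 3 (-0.02), the synaptic and secreted effectors 2 of 4 (-0.02), the kinase and phosphatase feedback genes 2 of 4 (-0.025) and the other response genes 3 of 6 (-0.02). Npas4, Klf2 and Klf4 were all above 0 (0.19, 0.34 and 0.14). None of these genes was called, so the counts are counts of sign. Log2 fold changes not given above were 0.31 (Btg2), -0.09 (Ier5), -0.23 (Nptx2), 0.14 (Ptgs2) and 0.05 (Tiparp, an ADP-ribosyltransferase gene). Egr1, Egr2, Egr3 and Egr4 stood at -0.15, -0.08, -0.08 and -0.17, and Nr4a1, Nr4a2 and Nr4a3 at -0.02, 0.006 and -0.18. Fosb, Jun, Maff and Atf3 were at 0.05, -0.0055, -0.23 and -0.0003. Dusp5, Dusp6, Sik1, Homer1 and Gadd45g were at -0.13, -0.21, 0.08, -0.17 and -0.14.

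The factors that induce these genes were much steadier. The list of 35 upstream activators (serum response factor and its partners, CREB and its coactivators, MEF2 factors, and MAP kinase and calcium signalling enzymes) had a median SD of log2 CPM of 0.13 over the 8 libraries. The median SD over all tested genes was 0.155. In KO against WT, 11 of the 35 lay above 0 (50.1% of all tested genes) and 24 below, with a median log2 fold change of -0.02. None reached an unadjusted p under 0.05 or was called by edgeR. The lowest p belonged to Mef2c with 153.9 ± 9.295 CPM for WT and 166.9 ± 15.2 CPM for KO (edgeR adjusted p = 0.799), followed by Mef2d (log2 fold change -0.12) and Map2k1 (-0.08). Of the 35, 7 had r above 0.7 with Fos, against 10.9% of all tested genes.

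Late response genes, which follow the early factors by hours and include secreted factors such as Bdnf and Vgf, had 41 of 42 members tested. Their median SD was 0.23, and 14 lay above 0 (50.1% of all tested genes) and 27 below in KO, with a median of -0.09. At an unadjusted p under 0.05 there were 2 of 41, against 6.16% of all tested genes. They were Fbxo32, a ubiquitin ligase gene, with 23.3 ± 3.10 CPM for WT and 29.6 ± 4.25 CPM for KO, and Rgs2, a regulator of G protein signalling, with 40.0 ± 4.13 and 34.95 ± 1.75 CPM, and neither was called by edgeR (adjusted p = 0.796 for both). Pcsk1 and Spry4 followed, with log2 fold changes of -0.24 and -0.22. The list's mean centred level was -0.18 in KO replicate 1 and 0.04 in KO replicate 3, and highest in WT replicate 2 (0.21). Of the 41, 13 had r above 0.7 with Fos, against 10.9% of all tested genes.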

How the data were processed

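The authors deposited whole-number read counts per Ensembl gene without normalization, 1 column per library, per the file headers. Libraries were strand-specific and poly(A)-selected, with 12 PCR cycles, per the labels' protocols. The submitters' processing notes name bcl2fastq 2.17.1.14 (demultiplexing software) and mm10. Aligner, counter, annotation and strand setting: not given in the sources used here.

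KO was compared with WT over all genes with edgeR 4.0.16 in R 4.3.3 (filterByExpr, TMM scaling, robust quasi-likelihood F test, Benjamini-Hochberg adjustment, threshold 0.05). CPM used the same factors, and log2 CPM a prior count of 2. DESeq2 1.42.0 and limma 3.58.1 (voom with quality weights) were alternatives. The edgeR fit and the correlation code were tested on simulated data. Correlations used exact permutation of the 8 libraries. Exon lengths and positions came from GENCODE M21.

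The members and lists were chosen with earlier results of these data known. Values by library are given for the 6 members with the lowest p, the 6 with the largest SD, the 4 with the highest mean CPM and the 3 with the highest and the lowest r with Fos, and for others chosen after their values were seen. Named from other lists are the genes with the lowest p (4 each for upstream and late genes, 2 each for corticosteroid and heat shock genes) and the 5 other genes with the highest r with Fos; 1 upstream gene is not reported here. No pairing by replicate number was used. Every pair of libraries within a genotype differed beyond sampling noise (chi-square per gene of 8.84 to 40.9).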

Additional observations from a re-analysis of the deposited data

Results flagged for a closer look

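In 3 of 62 groups of 4 libraries (31 genes in each genotype), the gap between 1 library and the next, divided by the range of the group, exceeded the critical value of Dixon's test for 4 values (0.904 for Dusp6, 0.838 for Nptx2 and 0.984 for Maff). Chance flags about 1 in 20 such groups. All 3 were high values in WT replicate 2. Dusp6 stood there at 66.4 CPM, where the other WT libraries had 58.45 to 59.2 CPM. Nptx2 stood at 41.3 CPM against 20.5 to 23.9 CPM, and Maff at 2.805 CPM against 0.608 to 0.642 CPM. The same library held the most choroid plexus marker counts of the WT group (3584 CPM). KO replicate 2 held more (4847 CPM), with Dusp6 at 51.55, Nptx2 at 25.99 and Maff at 0.926 CPM. The part of that tissue in these values was not tested.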

How the results depend on the processing

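No immediate early gene was called under any alternative that was run. Over all genes, edgeR called 0, DESeq2 4, the fit with the replicate number as a block 1 (Dclk3, adjusted p = 0.00339), and fits with 1 library left out 0 to 1. Members at an unadjusted p under 0.05 numbered 3, and 1 to 7 with 1 library left out. In the labels, same-numbered libraries share only a number, so whether they were paired cannot be told. Their deviations from the genotype means correlated by 0.14, 0.12, -0.22 and -0.01 over all tested genes. Over the 31 genes these values were 0.27, 0.18, 0.12 and -0.31. Mean centred choroid plexus levels shared their sign in all 4 numbers. They were -1.12, 1.72, 0.63 and -2.175 in WT replicates 1 to 4 and -1.18, 2.01, 0.86 and -0.745 in KO replicates 1 to 4. The block changed no member's call and left the median log2 fold change at -0.08. The median pairwise r of 0.20 was 0.252 with genotype means removed, 0.349 with the replicate block, and 0.153 to 0.28 with 1 library left out. The median SD was 0.306 to 0.331 with 1 library left out, an alternative chosen after seeing the data. Relations with Fos past the adjusted threshold numbered 1, and 0 to 4 with 1 library left out. With genotype means removed they numbered 4, by a permutation that is too lenient for such values. With 1 library left out, 19 of the 31 log2 fold changes changed sign at least once, among them those of Egr2 (-0.907 to 0.27), Maff (-0.639 to 0.676), Npas4 (-0.024 to 0.461), Arc (-0.163 to 0.445), Egr4 (-0.456 to 0.032) and Jun (-0.04 to 0.04). Maff was also at 0.191 by limma-voom, and Jun at 0.014 with upper quartile factors and 0.004 with a filter of 1 CPM in 4 libraries. With 1 library left out the r with Fos ran from -0.436 to 0.125 for Gadd45g, -0.496 to 0.198 for Nr4a2 and -0.672 to 0.025 for Jun, above 0 only without KO replicate 1. The cause of these changes was not tested. For Maff, Atf3 and Egr2, 16 to 188 counts per library limit the precision.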

Other observations

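Outside the immediate early genes, the 5 named genes whose log2 CPM correlated most with Fos were Jmjd4 (r = 0.974), Dnaja4 (0.969), Nabp2 (0.969), Slc35c2 (0.967) and Pomk (0.966). They were picked as the extremes over all tested genes and their ranges were narrow. Dnaja4, a heat shock protein 40 family gene, measured 79.3, 80.2, 75.5 and 78.6 CPM across WT and 65.9, 73.9, 83.3 and 76.1 CPM across KO. Heat shock and stress genes had 5 of 10 members with r above 0.7 with Fos and a median r of 0.736, and 8 of 10 lay below 0 in KO, with Hspa8 at 272 ± 12.1 and 249.4 ± 23.2 CPM and Bag3 at 11.6 ± 1.86 and 10.4 ± 0.783 CPM. Over all tested genes, 10.9% had r above 0.7 with Fos and 50.1% lay above 0 in KO. No heat shock or stress gene was called by edgeR.

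Corticosteroid-responsive genes, another acutely regulated set, had their highest mean level in a different library. Their mean centred level was 0.50 in KO replicate 4 and between -0.14 and 0.03 in the other 7 libraries. Their median r with Fos was 0.01, though 4 of the 19 tested had r above 0.7 with Fos (10.9% of all tested genes). In KO against WT, 14 of 19 lay above 0 (50.1% of all tested genes) and 3 lay higher at an unadjusted p under 0.05 (3.96% of all tested genes), and none was called by edgeR. In KO replicate 4 the mean centred level was also 0.42 for mural, 0.28 for endothelial and 0.82 for meningeal fibroblast markers, and their part was not tested. Tsc22d3, which encodes the glucocorticoid-induced leucine zipper, had 56.6 CPM in KO replicate 4 and 33.5 to 45.7 CPM elsewhere, and Mertk had 65.9 CPM and 35.7 to 50.6 CPM. Of the immediate early genes, 5 of 31 were highest in that library, against 15.5% of all tested genes.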
